A study of Mus musculus with 6 samples.

Results

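The genes described here encode 7 enzymes of nitric oxide, arginine, itaconate, kynurenine and superoxide metabolism, or of the supply of a cofactor: Nos2, Gch1, Ass1, Acod1, Ido1, Kmo and Sod2. They were chosen by name, and each has 1 row among the 55357 genes of the expression table. RNA-seq was performed on primary astrocytes grown from the cortex of C57BL/6 mouse embryos at embryonic day 18. In 3 cultures (KE) the cells had been transfected 48 hours earlier, and 3 cultures (NT) received no plasmid. In the plasmid that the paper describes, the CMV promoter drives FLAG-tagged BRAF carrying the K499E change. That description belongs to its immunostaining experiment, where a GFP plasmid was transfected as well. Whether the KE cultures used here also received GFP is not given in the sources used here. The CMV promoter is not restricted to astrocytes, the share of cells that took up the plasmid is not given in the sources used here, and transfection and BRAF KE cannot be told apart because no culture with an empty or wild-type plasmid was analysed here.

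Inducible nitric oxide synthase, encoded by Nos2, makes nitric oxide and citrulline from arginine. It needs tetrahydrobiopterin, whose synthesis starts with GTP cyclohydrolase 1 (Gch1), and citrulline can be turned back into arginine through argininosuccinate synthase (Ass1) and argininosuccinate lyase. Acod1 makes itaconate from cis-aconitate in activated macrophages and microglia, Ido1 and Kmo act in the kynurenine branch of tryptophan breakdown, and Sod2 removes superoxide in mitochondria. Transcription of Nos2, Gch1, Acod1, Ido1 and Sod2 is known to be inducible by inflammatory signals in glia or macrophages.

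The stretches directly upstream of Nos2 and Acod1 are shown because these enzymes had the largest differences between KE and NT among the 5 tested, 1 upward and 1 downward. Each is the 250 bases before the start of the Gencode canonical transcript on GRCm39, written 5′ to 3′ on the gene's strand, at chr11:78811363-78811612 for Nos2 (plus strand) and chr14:103284163-103284412 for Acod1 (plus strand). Capitals mark matches to a motif of the set searched below.
Nos2: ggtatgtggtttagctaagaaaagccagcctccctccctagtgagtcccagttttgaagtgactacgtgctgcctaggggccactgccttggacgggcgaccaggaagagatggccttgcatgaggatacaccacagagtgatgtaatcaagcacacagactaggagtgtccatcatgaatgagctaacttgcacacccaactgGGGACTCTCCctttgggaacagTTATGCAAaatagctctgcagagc
Acod1: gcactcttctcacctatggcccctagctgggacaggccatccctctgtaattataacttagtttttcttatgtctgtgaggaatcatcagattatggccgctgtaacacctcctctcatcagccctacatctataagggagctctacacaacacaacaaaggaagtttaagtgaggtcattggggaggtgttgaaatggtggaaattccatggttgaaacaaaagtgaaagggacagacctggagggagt

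The motifs searched on both strands were the kappaB consensus, the interferon-stimulated response element (GAAA repeated after a gap of any 2 bases), the gamma-activated site TTCNNNGAA, the AP-1 site TGANTCA, the PU.1 core GAGGAAG and the C/EBP site TTGCNNAA. In 21770 promoter windows of the same length, these were found in 7.62%, 3.32%, 7.7%, 6.17%, 10.3% and 9.34% of windows, respectively. The Nos2 window holds a kappaB match, GGGACTCTCC, 46 to 37 bases before the start, and a C/EBP match 24 to 17 bases before it, which do not overlap. The Sod2 window holds a gamma-activated site 41 to 33 bases before the start, and no motif of the set lies in the windows of Acod1, Gch1 and Ass1. An interferon-stimulated response element lies 66 to 57 bases before the start of Ido1 and 56 to 47 bases before that of Kmo. These are shown as windows of 30 bases with the match in capitals, at chr8:25087072-25087101 (minus strand) and chr1:175459468-175459497 (plus strand) of GRCm39, since these genes stayed near 0 in the cultures. The canonical starts of Gch1, Ass1, Kmo and Sod2 lie inside the annotated spans of these genes, so their windows are not upstream of every annotated start. A match describes letters only, and binding was not measured.
Ido1: acataaaacaGAAAATGAAActgtcccagg
Kmo: catttcgaatGAAAACGAAActgacacaca

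Expression values are gene counts that the authors divided by DESeq2 size factors, called normalized counts here. Approximate depth, from each total and the value that 1 read is worth (0.905 to 1.25 normalized counts), lay between 24500000 and 34100000 reads, lowest in KE replicate 2. Of the genes, 15280 averaged at least 10 across all 6 cultures, and for these log2(normalized count + 1) was compared with limma. A gene was called at a Benjamini-Hochberg adjusted p-value under 0.05. A log2FC is KE minus NT on that scale and understates the change of low genes. Of all tested genes, 51.3% were called, 25.3% as higher in KE and 26.0% as lower, and in 59.9% every KE value lay on the same side of every NT value. Braf, the transfected gene, was 34933 to 40978 in KE and 811 to 946 in NT, in the direction that the labels give. Astrocyte markers were abundant in both groups, with 30696 to 32167 normalized counts of Gfap in KE and 16537 to 17745 in NT, although S100b was low (11.8 to 31.5). Nothing states that same-numbered cultures were prepared together or that replicates came from separate embryos, so the p-values measure the spread between these cultures. Exons of Nos2, Acod1 and Sod2 overlap genes annotated on the other strand that have no row in the table, and whether reads were counted by strand is not given in the sources used here, so their values may include antisense reads.

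Nos2, Gch1 and Ass1, which act in the synthesis of nitric oxide, its cofactor and its substrate, were higher in BRAF KE–transfected astrocytes, while Acod1 was lower. Sod2 was not called, and Ido1 and Kmo were too low for the test. Thus 4 of the 5 tested enzymes were called, against 51.3% of all tested genes, with 3 higher and 1 lower. Without NT replicate 2, 4 were higher because Sod2 was called, and with no filter on low genes 4 were higher because Ido1 was called. The median log2FC of the 5 was 0.61, against 0.00 for all tested genes. With so many genes called, the share by itself does not set the enzymes apart.

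**Figure D1:**
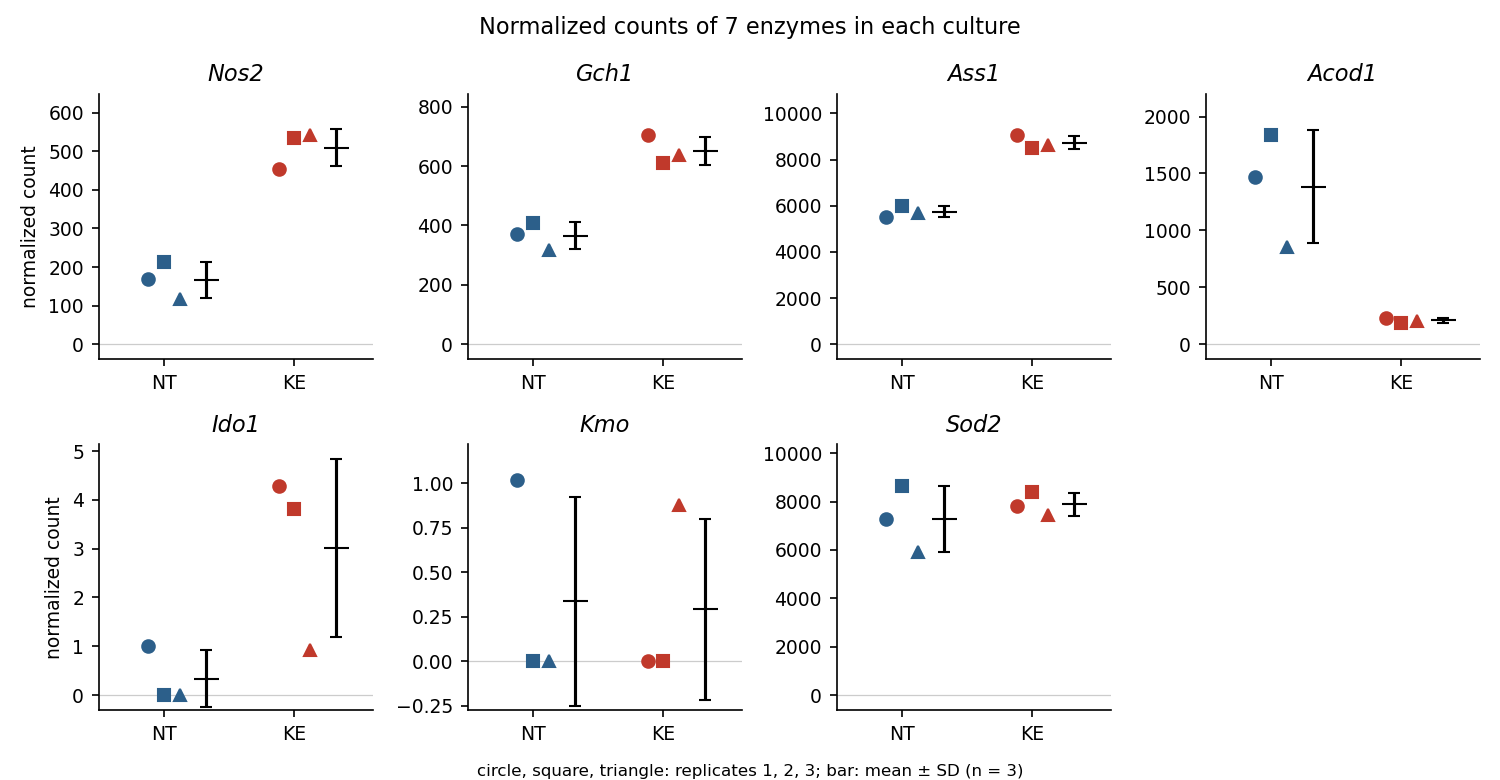
Normalized count (vertical axis, linear, a separate scale for each gene) in the 3 NT and the 3 KE cultures, with symbols for the replicate number and bars for the mean ± SD (n = 3). Nos2, Gch1 and Ass1 lie higher in every KE culture, Acod1 lies lower, and the groups overlap for Ido1, Kmo and Sod2.

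Nos2 (ENSMUSG00000020826) lies on the plus strand of chromosome 11 (GRCm39, 78811613 to 78851080). In normalized counts it was 454, 534 and 541 in the KE replicates, in the order of their numbers, and 168, 214 and 118 in the NT replicates. Every KE culture was more than double the highest NT culture, and the groups did not overlap. KE averaged 509.6 ± 48.3 (SD, n = 3) against 166.7 ± 47.7 (SD, n = 3), a 3.06-fold difference. The log2FC was 1.64 with a standard error of 0.18 and a limma adjusted p of 2.7e-05, with a 95% interval of 1.24 to 2.05.

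Gch1 (ENSMUSG00000037580), on the minus strand of chromosome 14 from 47391346 to 47426915, encodes the first and rate-limiting enzyme of tetrahydrobiopterin synthesis. It was 704, 611 and 639 in the KE replicates and 372, 407 and 319 in the NT replicates. The groups were separate, with all KE cultures near a common level and NT replicate 3 the lowest. The group means of 651 ± 47.7 (SD, n = 3) and 365.9 ± 44.3 (SD, n = 3) differed 1.78-fold, a log2FC of 0.83 ± 0.11 (SE; limma adjusted p = 7.4e-05).

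Ass1 (ENSMUSG00000076441), on the plus strand of chromosome 2 from 31352181 to 31410862, catalyses the rate-limiting step of citrulline recycling. It was 9053, 8511 and 8648 in the KE replicates and 5525, 5991 and 5683 in the NT replicates. The replicates of this abundant gene were close together and the groups did not overlap. KE averaged 8737 ± 281 (SD, n = 3) against 5733 ± 237 (SD, n = 3), a 1.52-fold difference with a log2FC of 0.61 ± 0.06 (SE; limma adjusted p = 5.2e-06).

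Acod1 (ENSMUSG00000022126), on the plus strand of chromosome 14 from 103284413 to 103294009, encodes the enzyme that makes itaconate. It was 235, 190 and 203 in the KE replicates and 1470, 1835 and 852 in the NT replicates. The KE cultures were close together, whereas NT replicate 2 was more than double NT replicate 3, and the lowest NT culture was still far above every KE culture. KE averaged 209 ± 23.1 (SD, n = 3) against 1386 ± 497 (SD, n = 3), which makes NT 6.62-fold higher. The log2FC was -2.66 ± 0.22 (SE; limma adjusted p = 2.6e-06), with a 95% interval of -3.14 to -2.17.

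Ido1 (ENSMUSG00000031551), the interferon-inducible enzyme that opens the kynurenine pathway, lies on the minus strand of chromosome 8 from 25074150 to 25087025. It was 4.28, 3.82 and 0.921 in the KE replicates, and in NT it was 1.01 in replicate 1 and listed at 0 in replicates 2 and 3. KE replicate 3 lay under NT replicate 1, so the groups overlapped at the level of single reads. It was not tested under the mean filter. With no filter, the log2 difference was 1.54 and was called with an adjusted p of 0.0438 from limma, on a few reads per culture and with overlapping groups. Kmo (ENSMUSG00000039783), which hydroxylates kynurenine and is mainly a microglial gene in brain, lies on the plus strand of chromosome 1 from 175447947 to 175489683. It was 0.881 in KE replicate 3 and 1.02 in NT replicate 1 and listed at 0 in the other 4 cultures. No difference in Kmo was detectable at this depth.

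Sod2 (ENSMUSG00000006818), the mitochondrial manganese superoxide dismutase on the plus strand of chromosome 17 from 13224095 to 13259591, was abundant in all cultures. It was 7799, 8386 and 7455 in the KE replicates and 7286, 8644 and 5896 in the NT replicates. The groups overlapped, with the highest and the lowest culture both in NT. KE averaged 7880 ± 471 (SD, n = 3) against 7275 ± 1374 (SD, n = 3). The log2FC was 0.13 ± 0.11 (SE; limma adjusted p = 0.35) and its 95% interval was -0.12 to 0.38. Without NT replicate 2 the log2FC was 0.26 and was called (adjusted p = 0.0368 from limma, 0.0368 to 0.92 over its alternatives), and without NT replicate 3 it was -0.01.

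**Figure D2:**
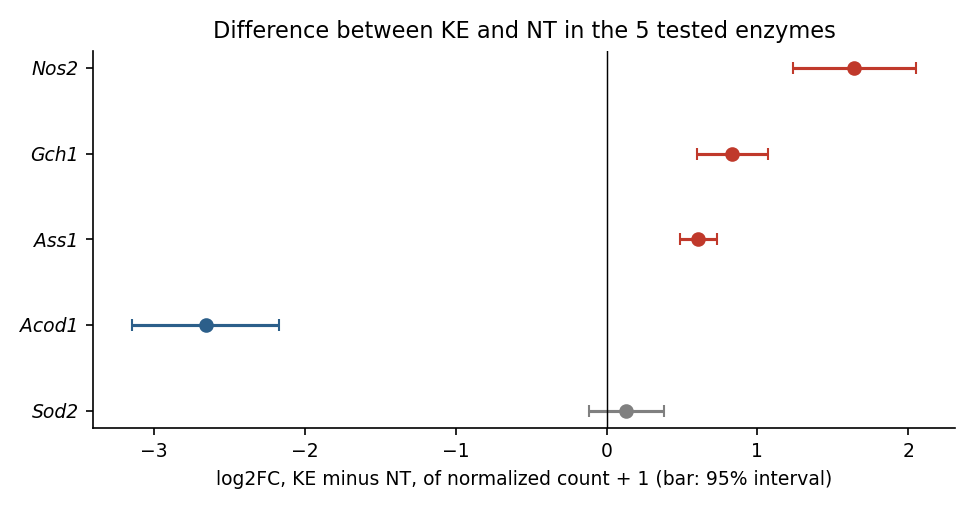
log2FC of KE minus NT (horizontal axis, normalized count plus 1) with 95% intervals from limma for the 5 tested enzymes, called higher in red, called lower in blue and not called in grey. Nos2, Gch1 and Ass1 lie between 0.61 and 1.64, Acod1 at -2.66, and the interval of Sod2 includes 0.

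The NT cultures differed among themselves in a way that several enzymes shared. For Nos2, Gch1, Acod1 and Sod2, NT replicate 2 was the highest NT culture and NT replicate 3 the lowest. This is a description of 3 cultures and was not tested.

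Levels were compared between genes per kilobase of the canonical transcript. In NT the order of mean normalized counts per kilobase was Ass1 (3256), Sod2 (1216), Acod1 (528), Gch1 (130.1), Nos2 (39.8), Ido1 (0.215) and Kmo (0.125). The cultures of neighbours in this order overlapped for Ido1 and Kmo, and not for the others. In KE the order was Ass1 (4962), Sod2 (1317), Gch1 (232), Nos2 (121.6), Acod1 (79.8), Ido1 (1.93) and Kmo (0.108), and neighbours from Ass1 to Ido1 did not overlap. Ido1 and Kmo were each at 1 read in KE replicate 3, so their order there rests on transcript length. Acod1 thus stood above Gch1 and Nos2 in every NT culture and below both in every KE culture.

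Other genes of the same pathways were compared in 5 lists of 78 genes in all, of which 69 passed the mean filter. Of these, 23 were higher and 17 lower in KE, 58.0% called against 51.3% of all tested genes, and their median log2FC was 0.08. By list, in the order given below, the called share was 66.7%, 64.7%, 38.5%, 57.1% and 60.0%. Among 15 tested genes of nitric oxide synthesis, tetrahydrobiopterin and nitric oxide signalling, 4 were higher and 6 lower (median log2FC -0.10). Without KE replicate 1 or KE replicate 3, 2 were higher, and without NT replicate 2, 3 were lower. Nos1, the neuronal synthase, was 45.4, 52.1 and 35.2 in the KE replicates and 102.2, 152 and 114 in the NT replicates, a log2FC of -1.45 (adjusted p = 0.00021 from limma). Its direction was thus opposite to that of Nos2. Nos3, the endothelial synthase, was low, at 19.1 ± 1.39 (SD, n = 3) in KE against 9.65 ± 2.59 (SD, n = 3) in NT. Its log2FC of 0.95 was called with an adjusted p of 0.041 from limma, and the call was lost in 5 of 6 fits that left out 1 culture, with no filter on low genes and with a replicate block (adjusted p = 0.0615 from limma, 0.0104 to 0.124 over its alternatives). Nos3 passed the mean filter through KE alone. Nostrin, which controls the traffic of the endothelial synthase, fell from 22.2 ± 1.93 (SD, n = 3) in NT to 1.32 ± 0.458 (SD, n = 3) in KE, where it was at the level of 1 or 2 reads, so it passed the mean filter through NT alone. Its log2FC of -3.34 was -2.11 with a pseudocount of 5.

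The enzymes that follow Gch1 in tetrahydrobiopterin synthesis differed little. Pts rose slightly, with a log2FC of 0.28 (adjusted p = 0.023 from limma), a call lost in 3 of 6 fits that left out 1 culture (0.0122 to 0.0892 over its alternatives), and Spr had a log2FC of -0.02 (adjusted p = 0.84 from limma). Asl, which follows Ass1 in citrulline recycling, had a log2FC of 0.19 that was not called (adjusted p = 0.074 from limma, 95% interval 0.01 to 0.37). With quantile normalization the Asl log2FC was 0.22 and was called (adjusted p = 0.0417 from limma, 0.0417 to 0.191 over its alternatives).

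Among 17 tested genes of arginine uptake, the urea cycle and polyamines, 5 were higher and 6 lower (median log2FC -0.01). The largest difference was that of Slc7a3, a cationic amino acid transporter, which was 219, 255 and 249.9 in the KE replicates and 46.4, 45.7 and 31.2 in the NT replicates. Every KE culture exceeded every NT culture several fold, with a log2FC of 2.54 (adjusted p = 9.7e-07 from limma). Slc7a2 and Slc7a1, more abundant transporters of the same list, were lower, with means of 4798 and 3140 in KE against 6420 and 3632 in NT. Their log2FC were -0.42 and -0.21 (adjusted p = 0.00074 and 0.021 from limma). Gatm, which uses arginine in the first step of creatine synthesis, and Sms, the spermine synthase, were lower, with log2FC of -1.20 and -0.97 (adjusted p = 3.3e-07 and 2.8e-07 from limma). Odc1, which makes putrescine from ornithine, was 17748 ± 416 (SD, n = 3) in KE against 17941 ± 1002 (SD, n = 3) in NT and was not called (log2FC -0.01, 95% interval -0.14 to 0.12).

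Of 13 tested genes for itaconate precursors, targets and breakdown, 2 were higher and 3 lower (median log2FC -0.04). Their called share of 38.5% was the lowest of the 5 lists, against 51.3% of all tested genes, a gap that was not tested. Idh2, the mitochondrial isocitrate dehydrogenase, had the largest difference (log2FC -0.71, adjusted p = 4.3e-06 from limma). Clybl, which takes part in the breakdown of the itaconate-derived citramalyl-CoA, was higher (log2FC 0.46) and the cytosolic aconitase Aco1 was lower (log2FC -0.26). None of the 4 subunits of succinate dehydrogenase, the enzyme that itaconate inhibits, was called, with log2FC between -0.09 and 0.01.

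Among 14 tested tryptophan and kynurenine genes, 7 were higher and 1 lower (median log2FC 0.24). The gene that fell was Kynu, kynureninase, at 8.97, 1.73 and 3.38 in the KE replicates and 30.2, 41.4 and 26.3 in the NT replicates (log2FC -2.75, adjusted p = 0.00073 from limma). It passed the mean filter through NT alone, and its log2FC was -2.01 with a pseudocount of 5. The higher genes were Got2, a transaminase, the transporter subunits Slc7a5 and Slc3a2, Wars1, the aryl hydrocarbon receptor Ahr, its target Cyp1b1, and Naprt, an enzyme of NAD synthesis. Slc3a2, the heavy chain of a tryptophan-carrying transporter, and Wars1, the tryptophanyl-tRNA synthetase, had log2FC of 0.97 and 0.70 (adjusted p = 1.2e-07 and 2.6e-06 from limma). Ido2 and Tdo2, which catalyse the same first step as Ido1, and Haao, which acts after Kynu, had means of at most 6.25 in either group and were not tested.

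Of 10 genes that remove superoxide and peroxide, 5 were higher and 1 lower (median log2FC 0.16). Without KE replicate 2, KE replicate 3 or NT replicate 2, 0 were lower. Gpx4, the lipid hydroperoxide peroxidase, rose from 5594 ± 139 (SD, n = 3) in NT to 9534 ± 402 (SD, n = 3) in KE (log2FC 0.77, adjusted p = 7.5e-07 from limma). The extracellular superoxide dismutase Sod3 and the copper chaperone Ccs were higher with log2FC of 0.62 and 0.44. The cytosolic Sod1 was not called, with a log2FC of 0.01 and a 95% interval of -0.15 to 0.18.

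**Figure D3:**
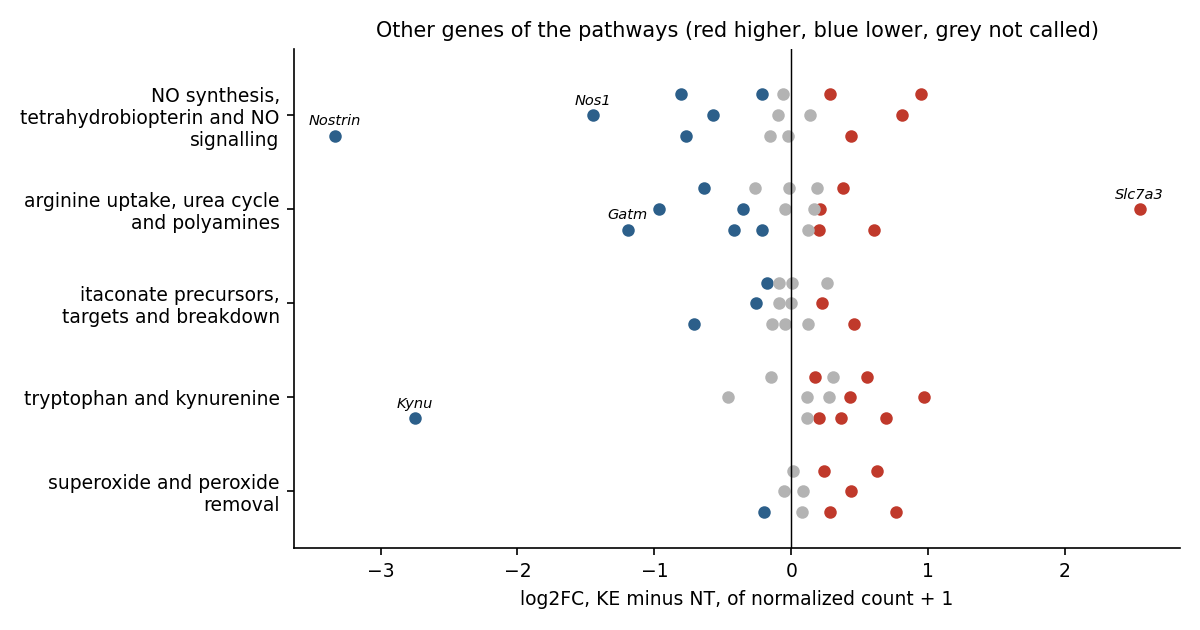
log2FC of KE minus NT (horizontal axis, normalized count plus 1) for the 69 tested genes of 5 pathway lists, 1 point per gene, spread vertically within a list for legibility. Most points lie within 1 of 0, and Slc7a3 (2.54), Nostrin (-3.34) and Kynu (-2.75) stand out. Nostrin and Kynu passed the mean filter through NT alone, and with a pseudocount of 5 their log2FC were -2.11 and -2.01.

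Markers of microglia and macrophages, cells that express Acod1 and Nos2 when activated, were lower in KE, as Acod1 was and as Nos2, Gch1 and Ass1 were not. Of 17 such markers, 16 were lower in KE, 0 were higher and Cd14 was not called, with a median log2FC of -3.37. None was at 0 in either group. Their summed level was 5668 to 7666 normalized counts in KE and 43650 to 52262 in NT, lowest among NT cultures in replicate 3. In these bulk samples, fewer cells of a type and less RNA per cell cannot be told apart. Of 10 astrocyte markers, 7 were higher and 1, Gja1, was lower (log2FC -0.46, adjusted p = 0.00014 from limma), with a summed level of 194523 to 200354 in KE and 142104 to 150693 in NT. Of 7 tested markers of the oligodendrocyte lineage, 6 were lower and 0 higher (median log2FC -0.74), with a summed level of 26823 to 31541 in KE and 35512 to 35897 in NT. Of 6 fibroblast and meningeal markers, 2 were higher and 3 lower, with a summed level of 2633 to 2709 in KE and 3303 to 3789 in NT. The gap between these sums rests on Pdgfra, which is also in the oligodendrocyte list (means 971 in KE and 1773 in NT). Of 7 tested neuronal markers, 1 was higher and 2 lower (6765 to 7190 against 8801 to 9477). The gap between the neuronal sums rests on Map2 (means 4965 in KE and 7077 in NT). Of 5 tested endothelial and mural markers, 1 was higher and 2 lower (1071 to 1152 against 1058 to 1202).

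Set against the summed microglia and macrophage markers, Acod1 was 41.3, 24.8 and 35.8 per 1000 marker counts in the KE replicates and 28.1, 35.6 and 19.5 in the NT replicates. These values overlapped. The NT to KE ratio of means was 6.62 for Acod1 and 7.75 for the marker sum. Cd14 averaged 1907 in KE and made up much of the sum there. Without it, a choice made after seeing the data, Acod1 was 62.1, 33.1 and 53.8 in KE and 29.2, 37.1 and 20.2 in NT, which still overlapped, and the NT to KE ratio of the marker sum was 10.7. Nos2 per 1000 counts of all 17 markers was 79.8, 69.6 and 95.5 in KE and 3.22, 4.14 and 2.71 in NT, and Gch1 was 79.6 to 123.6 and 7.12 to 7.88. For both, every KE value lay above every NT value. This had to follow, since both genes were higher and the marker sum lower in every KE culture. Within NT, replicate 3 had the lowest marker sum and also the lowest Nos2 and Gch1, while the marker sum was highest in replicate 1 and both genes in replicate 2. The part of these cells in the levels of the enzymes and of Kynu was not tested, and the cells that carried each transcript were not identified.

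**Figure D4:**
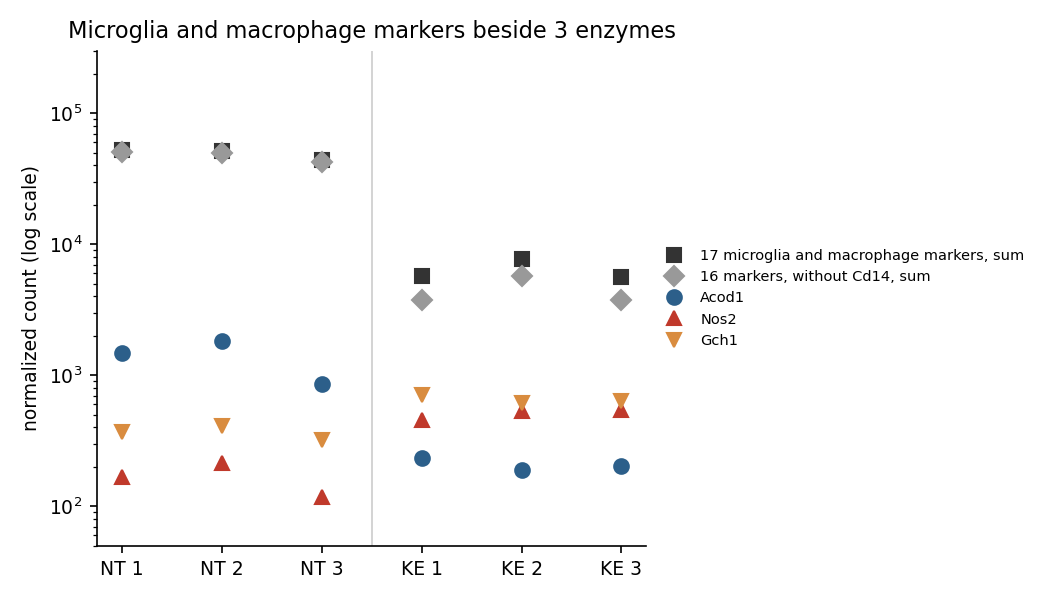
Normalized count on a log axis for each NT and KE culture, with the summed level of 17 microglia and macrophage markers, the same sum without Cd14, and 3 enzymes. The marker sums and Acod1 are lower in all KE cultures, while Nos2 and Gch1 are higher.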

How the data were processed

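RNA-seq of 3 KE and 3 NT cultures was analysed, with groups and replicate numbers from the sample titles. The authors deposited a normalized signal: gene counts from Salmon divided by DESeq2 size factors, after Trim Galore and STAR. The methods name GRCm39 with Gencode for mouse, while the submitters' processing notes name GRCh38; the identifiers are mouse. Batch adjustment is mentioned without naming batches, so none was modelled. Between 74.7% and 77.6% of small values fell within 0.1 of whole reads, too few to recover counts, so no count test was run.

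The deposited signal plus 1 was put on the log2 scale. KE and NT were compared with limma 3.58.1 (R 4.3.3, trend on) where a gene averaged 10 or more, with no covariate. P-values are two-sided and adjusted over 15280 genes, and the fit was tested on simulated data. Coordinates, canonical transcripts and promoter windows came from the Gencode vM39 annotation of GRCm39. Named genes were the members, Braf, the enzymes of neighbouring steps, the 3 called genes per list with the largest log2FC, and the 2 genes most correlated with each tested member. Succinate dehydrogenase, the higher tryptophan genes other than Slc3a2 and Wars1, Gfap, S100b, Gja1, Cd14, Pdgfra and Map2 were named after their values were seen. Slc7a1 and Slc7a2 were named in the same way. The members and lists were chosen with earlier results of these data known, and some genes of the member, pathway and marker lists are not reported here. Alternatives were pseudocounts of 0.5 and 5, no filter or a mean of at least 50, quantile or 75th percentile scaling, no trend, a replicate block, and leaving out each culture.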

Additional observations from a re-analysis of the deposited data

How the results depend on the processing

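Over 14 alternative settings, Nos2, Gch1, Ass1 and Acod1 kept their direction and their call in each fit that tested them, with log2FC of 1.42 to 1.84, 0.74 to 0.91, 0.58 to 0.64 and -2.97 to -2.42. With no filter on low genes, 4 members were higher. With a mean of at least 50, Kynu was not tested, so 0 tryptophan and kynurenine genes were lower. Without the variance trend, 0 genes of superoxide and peroxide removal were lower. With single cultures left out there were 3 to 4 members higher, 2 to 3 nitric oxide genes higher and 3 to 6 lower, 0 to 1 genes of superoxide and peroxide removal lower, and the Sod2 log2FC was -0.01 to 0.26, the lowest (-0.012 to 2 digits) without NT replicate 3. For Sod2 and these lists the cause was not tested. The total of called genes was 6776 to 7199 in these fits. A replicate block gave 8046 called genes, of which 7669 were also called without it, the calls of the 5 tested members were the same, and Nos3 lost its call (adjusted p = 0.0615 from limma). Same-numbered KE and NT cultures had correlations of 0.059 to 0.066 across genes, and each culture correlated best with its own number. These values cannot decide whether the numbers mark pairs, and the main fit did not treat them as pairs. Depth limits Ido1 and Kmo, which rest on few reads.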

Other observations

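The genes whose log2 values over the 6 cultures were most like those of each tested enzyme were taken from genes with a mean of at least 100. With 2 groups of 3, a high r mostly reflects the difference between the groups, and 865 of 12071 genes had an r over 0.95 with Nos2. The highest were Rit1 (r = 0.997) and Olfm2 (r = 0.997) for Nos2, Insig2 (r = 0.9997) and Casp12 (r = 0.999) for Gch1, and Pdgfa (r = 0.999) and 4632415L05Rik (r = 0.999) for Ass1. For Acod1 they were Rassf4 (r = 0.999) and Nsun2 (r = 0.999). Rassf4 had a log2FC of -2.33, close to the -2.66 of Acod1, while Nsun2 had one of -0.38, so a shared order of cultures did not mean a shared size of change. Sod2 had 10 genes with an r over 0.95, led by Lrch1 (r = 0.978) and Dusp12 (r = 0.976). These are descriptions over the same 6 cultures.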
